A study of Mus musculus with 4 samples.

Results

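The lysosomal machinery described here is 45 genes chosen by name, of 17013 genes listed in the deposited values. They comprised 9 proteases, 17 glycosidases, sulfatases, lipid hydrolases and activator proteins, 5 lysosomal membrane proteins and 14 subunits of the vacuolar proton pump (V-ATPase). Wild-type C57BL/6 male mice gave the bone marrow, which was grown into macrophages with the growth factor M-CSF and seeded on porous culture inserts. Necrotic fat medium from freeze-thawed mouse abdominal fat was placed in contact with the cells from below for 24 h, and artificial necrotic bone fluid (aNBF), a freeze-thaw extract of bone and marrow, was added above the cells in both groups. The 2 control libraries (Con) came from cells given the middle layer of the spun fat preparation, and the other 2 (Fat) from cells given the layer of fat that floated on top. The question was whether RNA levels of the digestive machinery differ in macrophages given the fat layer. No group without aNBF or without a fat preparation was analysed here. The age of the mice and whether the replicates came from separate mice or cultures are not stated in the labels or methods. The p-values therefore set the difference between the groups against a spread between libraries that may be technical. For single genes, that spread was estimated in large part across genes.

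The lysosome is the acidic compartment in which macrophages break down what they take up by phagocytosis. Soluble hydrolases cleave proteins, glycans and lipids, activator proteins present lipids to them, and heavily glycosylated membrane proteins line the organelle. The V-ATPase acidifies the lumen: its cytosolic V1 sector hydrolyses ATP and turns a rotor, and its membrane V0 sector carries protons inward. Many lysosomal genes carry in their promoters a CLEAR element, a palindrome built on GTCACGTG, to which the transcription factors TFEB and TFE3 bind.

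The promoters are shown first because the letters of the CLEAR element were more frequent in those of the members than in those of all genes, although most member promoters lacked them. RefSeq promoters of build GRCm38.p6, from 250 bases before to 50 bases after a gene start, were matched for 37 of the 45 members. No entry was matched for Asah1, Atp6v0d2, Atp6v1b2, Atp6v1c1, Atp6v1g1, Atp6v1h, Ctsb and Ctsh. GTCACGTG, on either strand, was present in 11 of 37 members (29.7%), compared with 2.55% of the 27025 genes with a promoter and 4.86% of the 9348 such genes that were also tested for expression. The shorter CACGTG, which is its own reverse complement and lies within every GTCACGTG, was present in 14 of 37 members (37.8%), compared with 8.09% of all genes with a promoter and 11.8% of those tested. Because many lysosomal genes are known to carry this element, a higher share in a list of such genes is no new finding of these data. A match is a description of the letters and not a measured binding site. The following windows, 5′ to 3′ on the strand of the gene, cover a protease, both membrane proteins with a match and both V-ATPase subunits with a match, with GTCACGTG or its reverse complement CACGTGAC in capitals.
Ctsd, chr7:142387908-142387935, minus strand: gcccgcgtctCACGTGACccgttgaggg
Lamp1, chr8:13159123-13159150, plus strand: tgccgactggCACGTGACcacatcacgt
Mcoln1, chr8:3500436-3500463, plus strand: ggtcgcgcttGTCACGTGttcagttcag
Mcoln1, chr8:3500464-3500491, plus strand: gcgccccgctCACGTGACcgcggcgcat
Atp6v0b, chr4:117887350-117887377, minus strand: gtgcgcggggGTCACGTGgggtcggcgc
Atp6v0d1, chr8:105566052-105566079, minus strand: ccctactgcgGTCACGTGagacgcggtg

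The matches of Mcoln1, a lysosomal calcium channel, were 2 and began 73 and 45 bases before the gene start. The match in Ctsd, the aspartic protease cathepsin D, began 98 bases before the start, and a second Ctsd match lay 245 bases before it. Of 22 CACGTG matches in member promoters, 16 lay within the 100 bases before the start or after it. Ctsc, the member that fell in Fat, had no CACGTG in its window, and Atp6v1h, the member that rose, had no promoter entry to examine. Whole promoters are given for the 3 members that hold CACGTG and had the smallest adjusted p-values among those, none of which passed the test for expression, with CACGTG in capitals.
Glb1, chr9:114400828-114401127, plus strand: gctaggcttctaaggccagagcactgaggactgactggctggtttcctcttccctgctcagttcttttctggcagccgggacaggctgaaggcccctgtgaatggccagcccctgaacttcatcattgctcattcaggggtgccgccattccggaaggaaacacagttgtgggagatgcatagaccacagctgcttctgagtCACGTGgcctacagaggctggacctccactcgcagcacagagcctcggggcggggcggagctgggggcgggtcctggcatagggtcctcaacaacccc
Atp6v1a, chr16:44139210-44139509, minus strand: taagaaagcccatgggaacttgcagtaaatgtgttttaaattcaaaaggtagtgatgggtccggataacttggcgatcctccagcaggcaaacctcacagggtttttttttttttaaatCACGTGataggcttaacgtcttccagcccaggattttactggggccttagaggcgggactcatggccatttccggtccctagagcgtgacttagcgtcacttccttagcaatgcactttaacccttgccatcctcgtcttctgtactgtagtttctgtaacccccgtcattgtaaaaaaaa
Ctsl, chr13:64370471-64370770, minus strand: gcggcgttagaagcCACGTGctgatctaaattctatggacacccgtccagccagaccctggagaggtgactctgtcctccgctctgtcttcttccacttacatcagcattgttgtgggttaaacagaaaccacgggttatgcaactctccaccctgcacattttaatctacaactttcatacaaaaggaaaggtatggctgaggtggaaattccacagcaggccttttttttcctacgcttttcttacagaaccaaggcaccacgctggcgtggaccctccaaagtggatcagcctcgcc

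**Figure D1:**
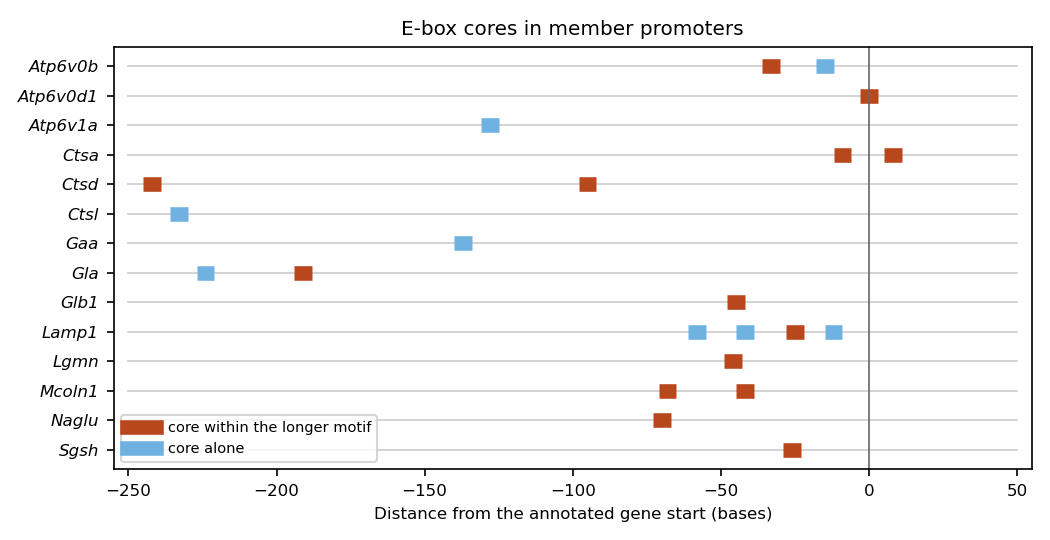
Positions of CACGTG in the promoters of the 14 members that hold it, by distance from the gene start in bases, with matches extended to GTCACGTG marked apart from CACGTG alone. Of the 22 matches, 16 lie within 100 bases before the start or after it.

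Members with CACGTG in the promoter window had a median log2 fold change, Fat minus Con, of 0.01 (14 members, range -0.21 to 0.35), and those without it had a median of -0.06 (23 members, range -0.83 to 0.14). For GTCACGTG the medians were 0.00 in 11 members and -0.04 in 26. For both motifs, members with and without the letters spanned overlapping ranges of difference between the media. The 8 members without a matched promoter are in neither group, and their estimates ran from -0.23 (Ctsh) to 0.26 (Atp6v1h).

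The libraries held 33573852 and 37881292 reads in Con and 37534565 and 40785872 reads in Fat, so that a single read equalled between 0.0244 and 0.0295 CPM (a gene's reads relative to the size of its library, as scaled by the authors). Of 8 macrophage markers 7 were listed, each above 3 reads in every library, while Adgre1 was not analysed here. The summed macrophage markers were 32779 to 34746 CPM in Con and 25917 to 27440 CPM in Fat, a sum carried mainly by Lyz2, and Mertk and Fcgr1 were called lower. Adipocyte markers summed to 0.147 and 0.160 CPM in Con and 4.10 and 2.46 CPM in Fat. Cidec, the only marker of these to pass the filter, was called higher (0 and 2 reads in Con, 67 and 47 in Fat). Fibroblast markers summed to between 529 and 676 CPM in all libraries with Dcn called lower, and neutrophil markers to between 322 and 376 CPM. The part of these other cell types in the results below was not tested. In such bulk libraries, fewer cells of a type and less RNA per cell cannot be told apart.

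Together the 45 members took 8.44% and 8.90% of all reads in Con and 8.72% and 8.50% in Fat, so their total ranges overlapped (log2 ratio of means -0.01, exact two-sided permutation p = 1, where 2 against 2 libraries cannot give less than 0.333). Psap, Ctsd, Ctsb and Ctsl, in that order in every library, held between 72.3% and 74.0% of the members' summed CPM. At the other end, Sgsh, a heparan sulfate sulfatase, had 29.3 and 30.4 CPM in Con and 28.3 and 29.3 CPM in Fat. All 45 members passed the filter on low values.

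**Figure D2:**
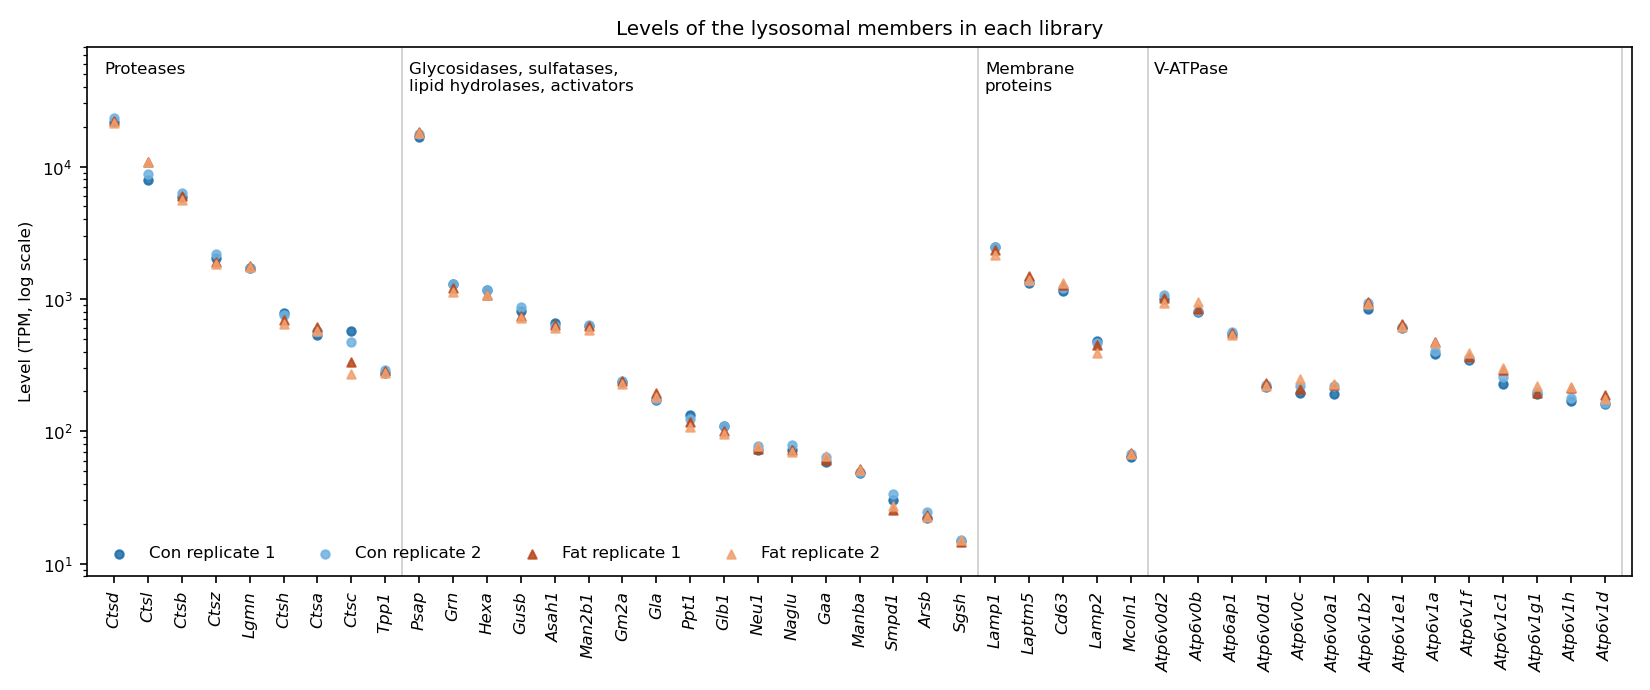
TPM (reads scaled for gene length and library, log axis) of the 45 members, with a point for each of the 4 libraries, ordered by mean TPM within the role groups and, for the V-ATPase, within V0 with the accessory subunit and then V1. Ctsd, Psap and Ctsl lead, and Sgsh is the lowest.

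Between the media, 2 of the 45 members differed at an adjusted p under 0.05 with limma: the protease Ctsc fell and the V-ATPase subunit Atp6v1h rose in Fat. In all tested genes, 3.99% were called higher and 5% were called lower, so 1 member in each direction is not more than the background. The median log2 fold change of the members was -0.03, beside 0.01 over all 12470 genes tested, and their median absolute log2 fold change was 0.10, beside 0.12 over all genes. The estimate was positive in 22 members and negative in 23. Both Fat libraries lay above both Con libraries in 8 members and below in 16, while the groups overlapped in 21, compared with 29.4% above, 26.2% below and 55.6% without overlap in either direction over all genes tested. At an unadjusted p of at most 0.05 there were 5 members with positive and 10 with negative estimates, against a background of 11.8% and 12.4%.

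The intervals below rest on the spread between libraries, which may be technical, and do not bound the effect of the medium in new cultures. Their width rests in large part on a variance that limma pooled across genes. The 95% interval of the fold change lay within 1.5-fold in either direction for 43 of the 45 members, the exceptions being Ctsc and Ctsl. Over all genes tested, 76.2% had an interval within 1.5-fold. The standard error of the log2 fold change ranged from 0.05 to 0.17 among the members.

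**Figure D3:**
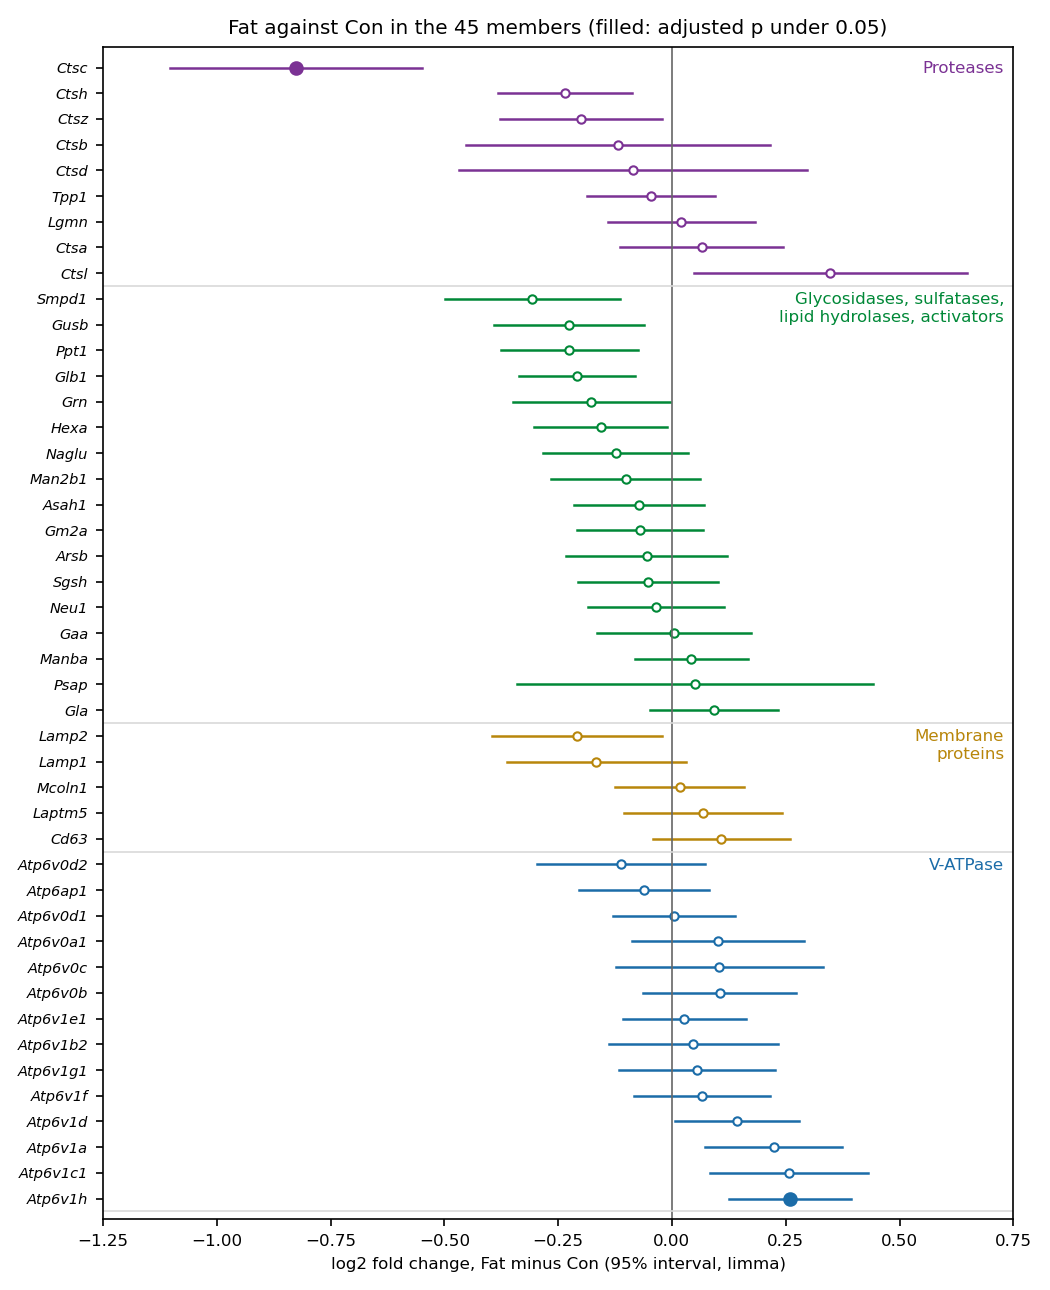
Log2 fold change, Fat minus Con, of the 45 members with 95% intervals from limma, grouped by role, with filled points for an adjusted p under 0.05. Only Ctsc (-0.83) and Atp6v1h (0.26) are filled, and the 8 V1 subunits at the foot of the plot all have positive estimates.

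Among the 9 proteases, 1 fell, none rose and 8 did not pass the test, with a median log2 fold change of -0.09. Ctsc, also called dipeptidyl peptidase I, trims dipeptides from the ends of proteins and activates the serine proteases of immune cell granules. It had 651 and 543 CPM in the Con libraries and 373 and 301 CPM in the Fat libraries. Both Fat libraries were below both Con libraries, and the mean went from 597 ± 76.1 CPM (SD, n = 2) to 337 ± 51.0 CPM (SD, n = 2). The log2 fold change was -0.83 with a standard error of 0.12, a ratio of 0.564, and limma's adjusted p was 0.0085. The call held when any library was left out and by both count tests, and it was lost without the mean-variance trend, where limma's adjusted p was 0.10.

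The most abundant protease was Ctsd, with 19473 and 21264 CPM in Con and 19551 and 18796 CPM in Fat. The groups overlapped, and the log2 fold change of -0.09 (standard error 0.16) did not pass limma's test (adjusted p = 0.80). Of its 75-base stretches, 31.1% were shared with another gene model, Gm49369, so reads may be split between them. Ctsl, the cysteine protease cathepsin L, is singled out here after its values were seen, since it had the highest estimate of all members. It had 7082 and 8092 CPM in Con and 9693 and 9575 CPM in Fat, without overlap, and a log2 fold change of 0.35 (standard error 0.13) with limma's adjusted p at 0.15. DESeq2 on the recovered reads gave 0.34 with an adjusted p of 0.0010 for the same gene, while edgeR did not call it. Ctsl and Ctsc thus had the extreme estimates of opposite sign within the same enzyme family.

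The remaining proteases had smaller estimates, none of which passed limma's test. Ctsh, a cysteine aminopeptidase, and Ctsz, a carboxypeptidase, had log2 estimates of -0.23 and -0.20, and both had Fat libraries below Con libraries. DESeq2 called Ctsh lower (adjusted p = 0.021). Ctsb, another abundant cathepsin, lay below in Fat as well with an estimate of -0.12, whereas Lgmn, the asparagine-specific protease legumain that processes other cathepsins, had an estimate of 0.02 and overlapping groups. As a group the proteases summed to 4.52% and 4.84% of reads in Con and 4.68% and 4.54% in Fat.

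No member of the 17 glycosidases, sulfatases, lipid hydrolases and activators passed limma's test or edgeR's, and DESeq2 called 1 (Gusb) lower. With limma, 6 had an unadjusted p of at most 0.05 and a negative estimate, beside 12.4% of all genes tested. In all, 13 of the 17 estimates were negative, beside 46.4% of all genes tested, with a group median of -0.07. Fat libraries lay below Con libraries in 10 of them, above in 2 and overlapped in 5, where 26.2% of all genes tested lay below and 29.4% above. Psap, the precursor of the saposins that present sphingolipids to their hydrolases, was the most abundant member of all in CPM. It had 20990 and 22277 CPM in Con and 22595 and 22200 CPM in Fat, with overlapping groups, a log2 fold change of 0.05 (standard error 0.17) and limma's adjusted p of 0.90.

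The 3 lipid hydrolases all had Fat libraries below Con libraries, beside 26.2% of all genes tested, with a median log2 fold change of -0.23. Smpd1, the acid sphingomyelinase that cleaves sphingomyelin to ceramide, had the largest absolute estimate of the group. It had 33.1 and 37.6 CPM in Con and 27.5 and 29.5 CPM in Fat, a log2 fold change of -0.31 (standard error 0.082) and limma's adjusted p of 0.063. Its call depended on the setting: it passed with median-ratio scaling (limma's adjusted p = 0.049) and without Con replicate 1 (-0.40, adjusted p = 0.039). Ppt1, the thioesterase that removes palmitate from proteins, had an estimate of -0.23 with limma's adjusted p at 0.077, and Asah1, the acid ceramidase that acts on the product of Smpd1, had an estimate of -0.07.

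Of the 9 glycosidases, 3 had an unadjusted p of at most 0.05 with a negative estimate, beside 12.4% of all genes tested. These are named for it after the values were seen. Glb1, the lysosomal β-galactosidase, had a log2 estimate of -0.21 with limma's adjusted p at 0.060. Gusb, the β-glucuronidase, had an estimate of -0.23 and Hexa, the α subunit of β-hexosaminidase, had an estimate of -0.16, with limma's adjusted p at 0.099 and 0.18. All of these had both Fat libraries below both Con libraries. The other 6 glycosidases ranged from -0.12 in Naglu, which removes N-acetylglucosamine from heparan sulfate, to 0.09 in Gla, the α-galactosidase. The sulfatases Arsb and Sgsh had estimates of -0.06 and -0.05. Among the activators, Grn, progranulin, had an estimate of -0.18 and Gm2a, the activator of ganglioside breakdown, of -0.07.

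**Figure D4:**
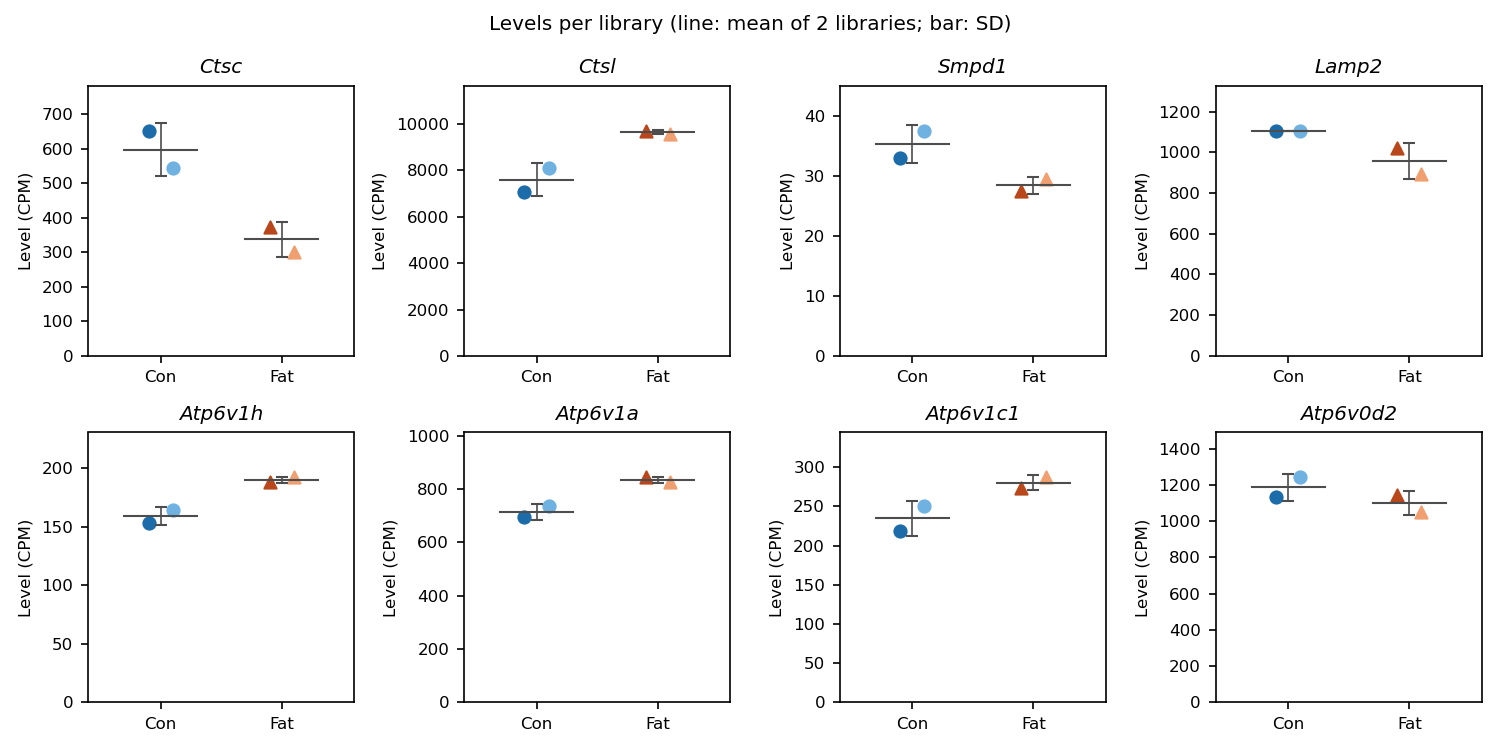
CPM of 8 members in each Con library (circles) and Fat library (triangles), with the mean as a line and the SD as a bar (n = 2). The groups overlap for Atp6v0d2 and not for the other 7, of which Ctsc and Atp6v1h passed the test.

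None of the 5 membrane proteins passed limma's test or either count test. With limma, 1 (Lamp2) had an unadjusted p of at most 0.05 and a negative estimate, beside 12.4% of all genes tested. The median log2 fold change of the 5 was 0.02, which turned to -0.036 without Con replicate 1 and was 0.070 without Con replicate 2. Lamp1 and Lamp2 are the main glycoproteins of the lysosomal membrane, and Lamp2 also has a splice form that acts in chaperone-mediated autophagy. Lamp1 had 2548 and 2579 CPM in Con and 2377 and 2196 CPM in Fat, a log2 fold change of -0.17 (standard error 0.084) and limma's adjusted p of 0.28. Lamp2 had 1105 and 1104 CPM in Con and 1020 and 896 CPM in Fat, a log2 fold change of -0.21 (standard error 0.080) and limma's adjusted p of 0.16. Both were lower in each Fat library than in each Con library without passing the test. The tetraspanin Cd63, the channel Mcoln1 and Laptm5, a lysosomal protein of blood cells, had estimates of 0.11, 0.02 and 0.07.

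Among the 14 V-ATPase subunits, 1 rose, none fell and 13 did not pass the test, with a median log2 fold change of 0.08. Among these members, the 2 sectors differed in their counts. All 8 V1 subunits had positive estimates, from 0.03 to 0.26 with a median of 0.11, beside positive estimates in 53.6% of all genes tested. In 4 of the 8, both Fat libraries lay above both Con libraries, beside 29.4% of all genes tested. The count of positive estimates stayed at 8 under every rescaling tried. It was 6, 8, 7 and 7 when Con replicates 1 and 2 and Fat replicates 1 and 2 were left out in turn. In V0 and the accessory Atp6ap1, 4 of 6 estimates were positive with a median of 0.05. The 6 include Atp6v0c, whose reads were also those listed for a pseudogene. The groups overlapped in all 6, where 55.6% of all genes tested had no overlap in either direction. Without Con replicate 1, Con replicate 2, Fat replicate 1 and Fat replicate 2 in turn, 2, 4, 3 and 3 of these estimates were positive, with medians of -0.025, 0.087, 0.039 and -0.0048. Summed over the V1 subunits, the level was 2750 and 2996 CPM in Con and 3155 and 3105 CPM in Fat, without overlap (log2 ratio of means 0.12, exact two-sided permutation p = 0.333, the smallest possible). No test of the difference between the sectors was made. Outside the members, the V0 genes Tcirg1 (log2 estimate 0.16), Atp6v0a2 (0.11) and Atp6v0e (0.08) had both Fat libraries above both Con libraries. The accessory Atp6ap2 (-0.11) had both below, and the V1 gene Atp6v1g2 (0.03) overlapped. None of these 5 passed limma's test, and the positive estimates were not confined to V1.

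Atp6v1h, subunit H of V1, is needed for coupling ATP hydrolysis to proton transport. It had 154 and 164 CPM in Con and 188 and 192 CPM in Fat. Both Fat libraries were above both Con libraries, with means of 159 ± 7.65 CPM (SD, n = 2) and 190 ± 2.77 CPM (SD, n = 2). The log2 fold change was 0.26 with a standard error of 0.057 and limma's adjusted p was 0.034. By both count tests the call held (adjusted p = 0.036 with edgeR and 0.019 with DESeq2). The call was lost without Con replicate 1 (0.21, limma's adjusted p = 0.12), without Fat replicate 1 (0.27, limma's adjusted p = 0.074), without Fat replicate 2 (0.24, limma's adjusted p = 0.15) and without the mean-variance trend (limma's adjusted p = 0.16).

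Further V1 subunits are named after their values were seen, for estimates near that of Atp6v1h. Atp6v1a, the catalytic A subunit that hydrolyses ATP, had 694 and 737 CPM in Con and 844 and 827 CPM in Fat, with a log2 fold change of 0.22 (standard error 0.064) and limma's adjusted p of 0.077, while DESeq2 called it higher (adjusted p = 0.033). Atp6v1c1, the C subunit at which V1 joins V0, had 219 and 251 CPM in Con and 273 and 287 CPM in Fat, with a log2 fold change of 0.26 (standard error 0.074) and limma's adjusted p of 0.078. Without Con replicate 2, Atp6v1c1 passed the test (0.35, limma's adjusted p = 0.012). Atp6v1d, part of the rotor, had an estimate of 0.14, while Atp6v1b2, the other subunit of the catalytic hexamer, and Atp6v1e1 of the stator stalks had estimates of 0.05 and 0.03.

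In V0, subunit d couples the rotor to the proton-carrying ring and exists as a widely expressed isoform, Atp6v0d1, and as Atp6v0d2, known from osteoclasts and macrophages. Atp6v0d2 had 1135 and 1240 CPM in Con and 1144 and 1053 CPM in Fat, with overlapping groups, a log2 fold change of -0.11 (standard error 0.079) and limma's adjusted p of 0.44. Atp6v0d1 had 159 and 168 CPM in Con and 168 and 160 CPM in Fat, with a log2 fold change near 0 (0.00, standard error 0.057) whose sign turned with the scaling. Per length, Atp6v0d2 was 4.61 and 4.77 times Atp6v0d1 in the Con libraries and 4.41 and 4.25 times in the Fat libraries. The mean ratio of TPM was 4.69 ± 0.113 in Con and 4.33 ± 0.112 in Fat (SD, n = 2 each), a log2 difference of -0.12 without overlap (exact two-sided permutation p = 0.333, the smallest possible). Osteoclast markers, given here because Atp6v0d2 is shared with that cell type, summed to 440 and 536 CPM in Con and 535 and 553 CPM in Fat. Of these markers, Dcstamp and Ocstamp, which act in cell fusion, rose by 0.31 and 0.47 (log2), with limma's adjusted p at 0.045 and 0.027. They were 2 of the 5 markers tested, beside 3.99% of all genes called higher. Ctsk, Acp5 and Mmp9 did not pass the test, and Calcr and Oscar had at most 5 reads in any library.

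The subunits also differed in level from one another, compared as TPM over the 4 libraries. The ranges and SDs here pool Con and Fat, so any difference between the media widens them. Atp6v0d2 (1000 ± 54.7 TPM, SD, n = 4), Atp6v1b2 (909 ± 48.1) and Atp6v0b (847 ± 65.5) led with ranges that overlapped in that order. Below a gap followed Atp6v1e1 (618 ± 20.5), Atp6ap1 (548 ± 13.0) and Atp6v1a (431 ± 44.5), each separate in range from the next above. Atp6v1a and Atp6v1f (mean 364 TPM) overlapped, and Atp6v1f lay above Atp6v1c1 without overlap. The other 7, from Atp6v1c1 (269 ± 33.3) down to Atp6v1d (172 ± 13.3), each overlapped with their neighbour in the order. Overlap of pooled ranges does not mean equal levels within a library. In every library Atp6v0d2 lay above Atp6v1b2, Atp6v1a above Atp6v1f, Atp6v1c1 above Atp6v0d1 and Atp6v1h above Atp6v1d. The reads of Atp6v0c, the main subunit of the proton-carrying ring, were equal in each library to those listed for Atp6v0c-ps2, a pseudogene, so these rows cannot be told apart and the level of Atp6v0c is uncertain.

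The wider lysosome was described with a list of 98 further genes from 9 classes, of which 96 were listed and 89 passed the filter, while 7 lay under it. Of the 89, 6 rose and 7 fell, with a median log2 fold change of -0.04, so this list too is read beside the 3.99% and 5% of all genes. Among those that rose, Sort1 (sortilin, a sorting receptor of the Golgi) had 404 and 395 CPM in Con and 552 and 544 CPM in Fat, and its log2 fold change was 0.46 ± 0.055 (SE), with an adjusted p of 0.0052 from limma. The mannose phosphate receptor Igf2r, which also brings hydrolases to lysosomes, had 0.24, the lysophospholipid transporter Spns1 had 0.39, the cation channel Tpcn2 had 0.34 and Scarb2, which carries β-glucocerebrosidase to the lysosome, had 0.31. Hyal1, a hyaluronidase, rose by 1.40 (log2) from 3.80 and 2.75 CPM in Con to 9.51 and 7.93 CPM in Fat, but 43.9% of its 75-base stretches are shared with the genes Naa80 and Hyal3.

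Of the 7 genes that fell, those given here are described by their log2 fold change. Naaa, an amidase of fatty acid ethanolamides, had -0.64, Acp2, a lysosomal acid phosphatase, had -0.32, and Tfec, a transcription factor of the TFEB family, had -0.53. The ribonucleases Rnaset2a and Rnaset2b had -0.47 and -0.52, with 77.8% and 62.5% of their stretches found in other genes, mainly each other. Among the genes named, leaving out 1 library removed the calls of Acp2, Igf2r, Rnaset2a, Rnaset2b, Scarb2, Spns1 and Tfec, whereas Hyal1, Naaa, Sort1 and Tpcn2 lost theirs only without the mean-variance trend. With limma, the adjusted p lay between 0.051 (Tfec) and 0.14 (Spns1) without Con replicate 1 for Acp2, Igf2r, Rnaset2a, Rnaset2b, Spns1 and Tfec, and at 0.059 and 0.051 without Con replicate 2 for Rnaset2a and Scarb2. It lay between 0.051 (Acp2) and 0.12 (Igf2r) without Fat replicate 1 for Acp2, Igf2r, Rnaset2a, Rnaset2b and Scarb2, and between 0.059 (Tfec) and 0.19 (Spns1) without Fat replicate 2 for Acp2, Igf2r, Rnaset2a, Spns1 and Tfec.

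The most abundant gene of each class was not called in 8 of the 9 classes, Sort1 being the exception. Lyz2, the lysozyme of macrophages, had 28720 and 26819 CPM in Con and 21516 and 20347 CPM in Fat, and its log2 fold change of -0.41 had limma's adjusted p at 0.21, while DESeq2 called it. Ctss, a cathepsin of antigen processing, had an estimate of -0.26 and was called lower by DESeq2 (adjusted p = 0.013) but not by limma. Of the others, Lipa, the acid lipase that frees cholesterol and fatty acids from lipoproteins and lipid droplets, had an estimate of 0.06, Cd68 of 0.09, Cst3 of 0.12 and Pld3 of 0.00. Tcirg1, the V0 a subunit isoform of osteoclasts and macrophages, had an estimate of 0.16 and Mitf, a TFEB relative, of -0.21. Tfeb and Tfe3 themselves had log2 estimates of 0.05 and -0.01.

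**Figure D5:**
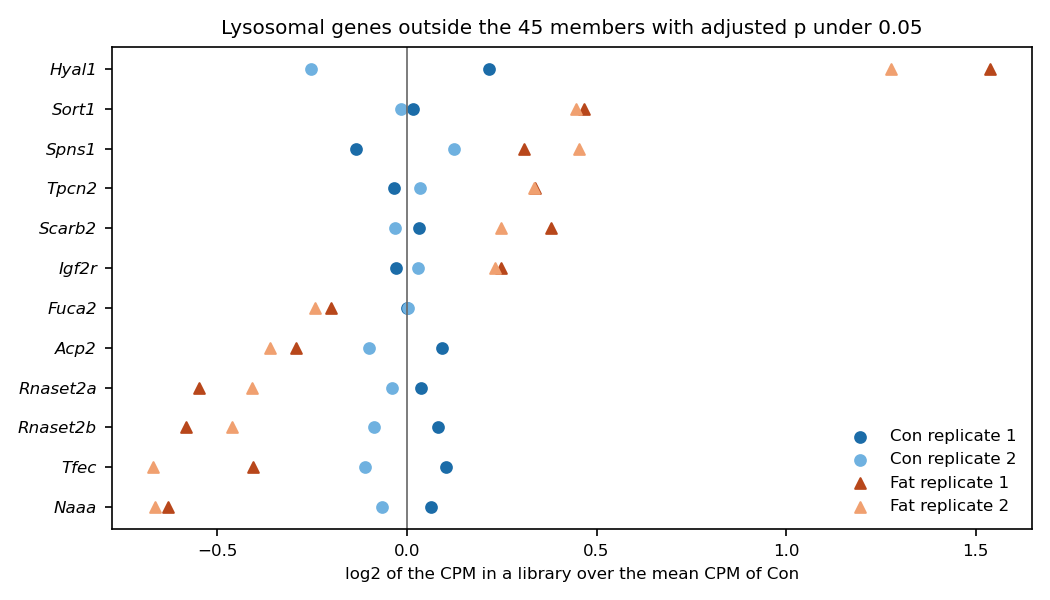
Log2 of the CPM in each library over the mean CPM of Con, for further lysosomal genes called between the media, as a selection of the 13 called. Circles are Con libraries and triangles Fat libraries. For each gene both Fat libraries lie on one side of both Con libraries, with Hyal1 the farthest to the right and Naaa the lowest in the order.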

How the data were processed

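Total RNA was made into poly(A) libraries (TruSeq Stranded mRNA) and sequenced as single reads of 75 bases, 2 libraries each for Con and Fat, assigned by the sample titles. The authors deposited CPM and TPM for 17013 genes. The CPM deposited by the authors are read counts scaled by library size, and the TPM deposited by the authors are also scaled for gene length. The aligner, annotation and strand setting of the counting are not given in the sources used here. The submitters' processing notes name GRCm39, whereas the RefSeq promoters are of GRCm38.p6, so coordinates are given for promoters alone. CPM were whole multiples of the value of 1 read for 100% of values (within 0.01 read), and the recovered reads were used in edgeR 4.0.16 (quasi-likelihood) and DESeq2 1.42.0 as alternatives. A value of 3 reads was taken as the detection floor.

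Fat was compared with Con on log2(CPM + 0.1) with limma 3.58.1 (R 4.3.3, mean-variance trend, two-sided, Benjamini-Hochberg over the 12470 genes that reached 0.5 CPM in 2 or more libraries), and genes were called at an adjusted p under 0.05. Fold changes are on this scale and slightly understate those of low genes. Summed levels and TPM ratios were compared by exact permutation. Other settings tried were median-ratio scaling, a pseudocount of 1 CPM, a minimum mean of 5 CPM in place of the filter, no filter at all, TPM in place of CPM (CPM for the TPM ratio), no trend, the replicate number as a block, each library left out, and the 2 count tests. On simulated counts for this comparison (12470 genes, 200 changed), limma recovered 71.6% of genes changed 1.5-fold, 92.5% at 2-fold and 100% at 4-fold, with 2 false calls. The simulation set the spread of each gene by its level alone, as the mean-variance trend assumes, so these rates may be optimistic. In the data, limma called 498 genes higher and 624 lower with the trend, and 19 and 12 without it. Shared sequence is the share of 75-base stretches of a gene's transcripts found in another gene. Tables were made with pandas 2.3.3 and numpy 2.4.6, permutations with scipy 1.17.1, and plots with matplotlib 3.10.9, in Python 3.11.15.

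Members and lists were chosen with earlier results of these data known. Values are given for called members, the most abundant member and the largest estimate of each role group, and the 2 isoforms of subunit d. Of the further list (9 classes), up to 6 called genes in each direction and the most abundant gene of each class are named. The planned comparison of the protein sequences of those isoforms was not made, and 1 called gene of the further list is not reported here.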

Additional observations from a re-analysis of the deposited data

How the results depend on the processing

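The reported test called 1 member higher and 1 lower, and 13 other settings were tried. Without the mean-variance trend both counts were 0, as were the 6 higher and 7 lower of the further list (limma called 19 genes higher and 12 lower in all genes then). Median-ratio scaling gave 2 members lower, beside 677 of all 12470 genes tested. DESeq2 gave 3 members higher and 3 lower and 12 of the further list lower, beside 456 of all genes higher and 595 lower. TPM gave 4 of that list lower, beside 366 of all genes. Leaving out single libraries gave 0 to 2 members higher (0 without Con replicate 1, Fat replicate 1 or Fat replicate 2) and 1 to 2 lower, and 2 to 8 of the further list lower (2 without Con replicate 1, 3 without Fat replicate 2). The median log2 fold change then ranged from -0.076 to 0.035 for all members, -0.15 to -0.023 for proteases, -0.036 to 0.070 for membrane proteins, -0.12 to -0.047 for glycosidases, lipid hydrolases and activators, and 0.012 to 0.13 for the V-ATPase. The summed level (log2 Fat over Con) turned sign for all members (0.032 with TPM, -0.061 to 0.043 with libraries left out) and proteases (0.028 with TPM, -0.084 to 0.044 with libraries left out), and when libraries were left out also for glycosidases, lipid hydrolases and activators (-0.028 to 0.048) and the V-ATPase (-0.0079 to 0.12), values that lie about 0. Atp6v0d1 and Pld3, at or near 0, turned negative with median-ratio scaling (-0.0037 and -0.0060), edgeR (-7.9e-05 and -0.0032) and DESeq2 (-0.0038 and -0.0068), and when libraries were left out (from -0.035 to 0.045 and from -0.075 to 0.080), as did Cst3 (from -0.090 to 0.34). The cause was not tested. Deviations of libraries with the same number correlated at 0.20 over 12470 genes and at 0.339 over the 9760 with a mean of at least 5 CPM, but no source states that the numbers pair the samples. With the replicate number as a block, 3 members were called higher (Atp6v1h, Atp6v1a and Atp6v1c1) and 6 lower (Ctsc, Ctsh, Glb1, Gusb, Ppt1 and Smpd1), and 10 and 20 of the further list, with 1278 and 1242 genes called over all genes. With 2 libraries per group the exact tests could not give a p under 0.333, and limma missed part of the 1.5-fold changes in simulated counts.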
